A study of Mus musculus with 6 samples.

Results

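The 10 genes described here make, pack or cut the contents of the secretory granules of enteroendocrine cells: Chga, Chgb, Scg2 and Scg3 of the granin family, the prohormone convertase genes Pcsk1 and Pcsk2 with their partners Pcsk1n and Scg5, the carboxypeptidase gene Cpe and the tryptophan hydroxylase gene Tph1. They were chosen by name, for their place in the granule and the processing pathway, but with earlier results of these data known. All 10 of them were among the 19616 genes of the deposited count table, and all 10 passed the filter on low counts that left 15618 genes for testing.

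RNA was sequenced from jejunal intestinal epithelial cells (IEC) enriched with EDTA from mice aged 3 months. The 3 control mice, C1, C3 and C3-3, are labelled wildtype, and the 3 Hdac1/2-deleted mice, H1, H5 and H9, carry villin-Cre with Hdac1-/-; Hdac2-/-, with 1 library per mouse. Hdac1 and Hdac2 encode histone deacetylases, and the villin promoter drives Cre in the epithelium of the intestine. The design thus aims the deletion at enteroendocrine cells and the absorptive cells around them alike. How complete it was in either cell type was not measured here. The mice were kept on a mixed background of C57BL/6J, 129SV and CD1. Because this is bulk RNA from an enriched epithelium, fewer cells of a type and less RNA per cell cannot be told apart in any of the values below.

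Enteroendocrine cells are the rare hormone-producing cells of the gut lining. They store peptide hormones and amines in dense-core granules, which granins help to form and fill. A peptide hormone is made as a longer prohormone: the convertases PC1/3 (Pcsk1) and PC2 (Pcsk2) cut it after pairs of basic residues, carboxypeptidase E (Cpe) trims those residues from the new end, and for some hormones the enzyme encoded by Pam then amidates it. ProSAAS (Pcsk1n) inhibits PC1/3, and 7B2 (Scg5) is the partner that PC2 needs to mature. Tph1 catalyses the rate-limiting step of serotonin synthesis in enterochromaffin cells, the enteroendocrine cells that also hold much of the gut's chromogranin A.

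Total counts ran from 36111035 in H5 to 65902344 in C1, where 3 counts, the smallest level taken as shown, correspond to 0.0831 and 0.0455 CPM (counts scaled to the total of their library and its TMM factor), a floor for counting error only. Hdac1 fell from 40.8 ± 7.33 to 3.77 ± 1.16 CPM (SD, n = 3), while Hdac2 stood at 27.7 ± 4.72 and 24.5 ± 2.70 CPM. A count over the whole gene can also take reads from exons outside a deleted part, for Hdac1 as for Hdac2. Reads were not examined by exon, so how far Hdac2 was lost was not tested here. The library of C3 is the only one with transcripts of Y-linked genes beyond a few reads, at 3082 counts over 4 genes against 1 to 13 in the others. The summed level of 8 stroma and muscle markers also set libraries apart, at 63.4 CPM in C1 and 45.5 CPM in C3 against 5.98 CPM in C3-3 and 4.24 to 9.74 CPM in the Hdac1/2-deleted mice. Values without each mouse are therefore given where they change a statement. The labels give no batch, and nothing beyond the mouse names says how the animals were related.

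Cpe was the 1 gene of the 10 that rose and Pcsk1 the 1 that fell, where a call needs both a 2-fold difference and an adjusted p no larger than 0.05 (edgeR quasi-likelihood test, Benjamini-Hochberg adjustment over all genes tested). By the same rule, 12.4% of all tested genes were called higher and 12.7% lower, so 1 of 10 in each direction is near the share of all genes. With the adjusted p alone, Chgb joined Cpe among the higher genes and Scg5 joined Pcsk1 among the lower ones, where 20.5% of all tested genes were higher and 20.3% lower. In 3 of the 10 genes (Chgb, Cpe and Tph1) all Hdac1/2-deleted mice lay above all control mice, and in 6 (Scg2, Scg3, Scg5, Pcsk1, Pcsk2 and Pcsk1n) all lay below. Over all tested genes these shares were 26.7% and 26.6%. Chga alone of the 10 had overlapping groups. The median log2 fold change of the 10 genes was -0.47, against -0.0081 over all genes tested. Their summed level nonetheless ran from 394.7 to 473.3 CPM in control and from 469.1 to 612.7 CPM in Hdac1/2-deleted mice, since Chgb and Chga make up most of it.

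**Figure D1:**
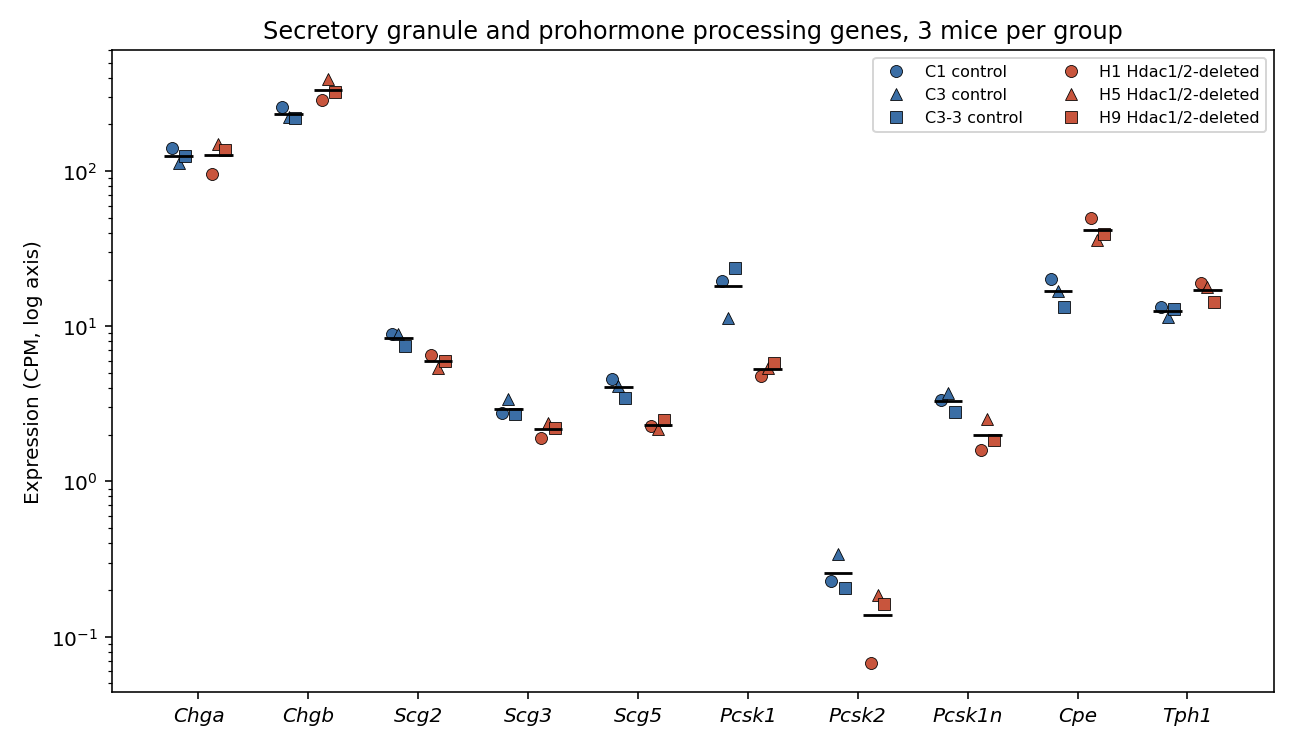
Level of each of the 10 genes in every mouse, in CPM on a log axis, with the 3 control mice in blue, the 3 Hdac1/2-deleted mice in red and a bar at each group mean. Pcsk1 lies at 11.3 to 23.6 CPM in control and 4.75 to 5.79 CPM in Hdac1/2-deleted mice, Cpe lies higher in every Hdac1/2-deleted mouse, and the 2 groups overlap for Chga.

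The granins come first. Chromogranin A (Chga, ENSMUSG00000021194) lies on chromosome 12 from 102554969 to 102565028 of GRCm38, on the plus strand, and its product is the common histological marker of enteroendocrine cells. Chromogranin B (Chgb, ENSMUSG00000027350) lies on chromosome 2 from 132781278 to 132795079, also on the plus strand, and its product is a second major granule protein. Secretogranin II (Scg2, ENSMUSG00000050711) lies on the minus strand of chromosome 1 from 79434669 to 79440120. The promoters of these granins and of Pcsk1 are shown here because they carry a shared element while the 4 RNAs differed in how they compared between the groups. Transcript starts here are those of RefSeq, which are not the ends of the GENCODE gene spans given in this text. All the bases shown for Chgb, most of those for Scg2 and part of those for Pcsk1 lie inside those spans. The lines below give the 100 bases just before the RefSeq start (GRCm38.p6), 5′ to 3′ on the strand of the gene. The cyclic AMP response element TGACGTCA or its half-site TGACG is in capitals.
Chga, chr12:102554841-102554940, plus strand: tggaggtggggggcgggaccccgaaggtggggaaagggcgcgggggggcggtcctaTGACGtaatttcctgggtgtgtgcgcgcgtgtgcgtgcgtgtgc
Chgb, chr2:132781542-132781641, plus strand: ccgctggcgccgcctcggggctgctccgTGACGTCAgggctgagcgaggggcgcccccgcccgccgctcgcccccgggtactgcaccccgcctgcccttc
Scg2, chr1:79440027-79440126, minus strand: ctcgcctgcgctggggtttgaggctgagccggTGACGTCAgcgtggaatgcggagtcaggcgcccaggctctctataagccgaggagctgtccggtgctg
Pcsk1, chr13:75089757-75089856, plus strand: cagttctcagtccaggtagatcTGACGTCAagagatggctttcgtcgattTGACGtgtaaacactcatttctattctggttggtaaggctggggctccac

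The complete element begins 72 bases before the RefSeq start in Chgb, 68 in Scg2 and 78 in Pcsk1. Chga has the half-site 44 bases before its RefSeq start. Windows of 250 bases before to 50 bases after the start were found for 9 of the 10 genes, all but Cpe, with 2 windows for Tph1. The complete element was read, on either strand, in 3 of these 10 windows and in 1.79% of all 32851 windows of the same length. The half-site, which is part of the complete element and was counted on both strands too, was in 9 of the 10 windows, all but that of Pcsk1n, and in 20.8% of all windows. TATAAA was in 1 of the 10 windows, that of Chga, and in 13.6% of all. The E-box CANNTG was in 7 of the 10 and in 72.3% of all. A match in letters is a description and not a binding site. Of the 3 genes with the complete element, Pcsk1 was called lower, Chgb was higher with the adjusted p alone, and Scg2 passed neither rule.

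Chga read 140.0, 112.6 and 124.7 CPM in C1, C3 and C3-3 and 95.6, 150.0 and 137.8 CPM in H1, H5 and H9. The lowest and the highest of the 6 values were both in Hdac1/2-deleted mice. The log2 fold change was 0.023 (SE 0.19, adjusted p = 0.93), with a 95% interval of the fold from 0.759 to 1.36, so that a 2-fold change in either direction lies outside it. The sign depended on single mice: without H1 the log2 fold change was 0.20, and without H5 it was -0.10.

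Chgb was the most abundant of the 10 genes, at 260.3, 221.9 and 218.9 CPM in control and 287.3, 390.8 and 324.7 CPM in Hdac1/2-deleted mice. Every Hdac1/2-deleted mouse lay above every control mouse, by the least in H1. The mean went from 233.7 ± 23.1 to 334.3 ± 52.4 CPM (SD, n = 3), a log2 fold change of 0.52 (SE 0.16, adjusted p = 0.031). This is under 2-fold, and the adjusted p stayed at or under 0.05 in 6 of 10 alternative settings. It was 0.078 without C3, 0.11 without C3-3, 0.1 without H5 and 0.065 without H9.

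The 2 less abundant secretogranins were lower on average and passed neither rule. Scg2 read 8.89, 8.86 and 7.41 CPM in control and 6.55, 5.37 and 5.98 CPM in Hdac1/2-deleted mice (log2 fold change -0.49, SE 0.20, adjusted p = 0.08). Scg3 (secretogranin III, ENSMUSG00000032181, chromosome 9 from 75643189 to 75684056, minus strand), whose product helps to bind chromogranin A to the granule membrane, ranged from 2.71 to 3.38 CPM in control and from 1.90 to 2.396 CPM in Hdac1/2-deleted mice (log2 fold change -0.44, SE 0.26, adjusted p = 0.21). For neither gene did the groups overlap.

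Among the processing enzymes, Pcsk1 (ENSMUSG00000021587, chromosome 13 from 75089826 to 75134861, plus strand) had the largest change of the 10 genes. It read 19.6, 11.3 and 23.6 CPM in C1, C3 and C3-3, from 1297, 626 and 1255 counts, and 4.75, 5.34 and 5.79 CPM in H1, H5 and H9, from 352, 203 and 356 counts. The control mice spread widely, C3 being lowest and C3-3 highest, whereas the Hdac1/2-deleted mice lay close together and all below C3. The mean fell from 18.2 ± 6.3 to 5.29 ± 0.52 CPM (SD, n = 3), to 0.292 of the control level. The log2 fold change was -1.78 (SE 0.27, adjusted p = 0.0011), with a 95% interval of the fold from 0.19 to 0.449. It was lower at an adjusted p of at most 0.05 in all 10 alternatives, between -2.02 without C3 and -1.54, and was -1.71 without C1.

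Pcsk2 (ENSMUSG00000027419, chromosome 2 from 143546156 to 143816285, plus strand) was barely present. It had 15, 19 and 11 counts in control and 5, 7 and 10 in Hdac1/2-deleted mice, or 0.259 ± 0.073 against 0.138 ± 0.062 CPM (SD, n = 3). The log2 fold change was -0.94 (SE 0.53, adjusted p = 0.19), and its 95% interval, from -2.15 to 0.26, covers both a fall of over 2-fold and a small rise, so a difference was not detectable at this depth. Of its exon bases, 260 also belong to the antisense gene Pcsk2os1 and 99 to Pcsk2os2, and no source says that reads were counted by strand.

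The partners of the convertases stood at a few CPM. Scg5 (7B2, ENSMUSG00000023236, chromosome 2 from 113776362 to 113829121, minus strand) read 4.61, 4.12 and 3.44 CPM in control and 2.28, 2.19 and 2.49 CPM in Hdac1/2-deleted mice, with no overlap. Its log2 fold change of -0.81 (SE 0.25, adjusted p = 0.029) is under 2-fold, and its adjusted p stayed at or under 0.05 in 4 of 10 alternatives. It was 0.1 with library totals only and 0.062 to 0.082 with any 1 mouse but C3-3 left out. Pcsk1n (proSAAS, ENSMUSG00000039278, chromosome X from 7919822 to 7924410, plus strand) ranged from 2.79 to 3.73 CPM in control and from 1.59 to 2.53 CPM in Hdac1/2-deleted mice (log2 fold change -0.73, SE 0.29, adjusted p = 0.072). It lies on the X chromosome and shares 135 exon bases with Eras on the opposite strand. In counts, there were 0.172, 0.331 and 0.118 Pcsk1n reads for each Pcsk1 read in C1, C3 and C3-3 and 0.335, 0.473 and 0.320 in H1, H5 and H9. The ratio of inhibitor to enzyme RNA was higher in each Hdac1/2-deleted mouse than in C1 and C3-3, but C3 lay above H9 (mean log2 difference 0.97, two-sided exact permutation p = 0.2).

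Cpe (ENSMUSG00000037852, chromosome 8 from 64592542 to 64693054, minus strand) went the other way. It read 20.3, 16.9 and 13.4 CPM in control, from 1343, 940 and 710 counts, and 50.02, 35.9 and 39.3 CPM in Hdac1/2-deleted mice, from 3706, 1364 and 2415 counts. The lowest Hdac1/2-deleted mouse, H5, was well above the highest control mouse, C1. The mean rose from 16.9 ± 3.46 to 41.7 ± 7.38 CPM (SD, n = 3), or 2.48-fold, with a log2 fold change of 1.31 (SE 0.20, adjusted p = 0.00098) and a 95% interval of the fold from 1.81 to 3.38. In the 10 alternatives the log2 fold change ran from 1.16 without H1 to 1.496, each with an adjusted p of at most 0.05, and was 1.47 without C1 and 1.32 without C3. Cpe is made in neurons and many endocrine cells, and 1 enteric neuron marker also differed: 4 of 8 listed markers could be tested, 1 of them rose (Tubb3, log2 fold change 2.81, adjusted p = 0.001), and their sum ran from 0.753 to 2.37 CPM in control and from 3.36 to 6.24 CPM in Hdac1/2-deleted mice. The groups stood apart in this sum through Tubb3: without it the sum of the other 5 markers overlapped, at 0.452 to 1.89 CPM in control and 1.27 to 1.87 CPM in Hdac1/2-deleted mice. Prph (log2 fold change 0.56, adjusted p = 0.34) and Nefl (1.27, adjusted p = 0.13) were higher on average but passed neither rule. Uchl1 had a log2 fold change of -0.80 (adjusted p = 0.48), with 1 count in C3-3. The median of the 4 tested markers was 0.91. Elavl3 and Stmn2 had too few reads for testing. The part of neuronal RNA in the rise of Cpe was not tested.

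**Figure D2:**
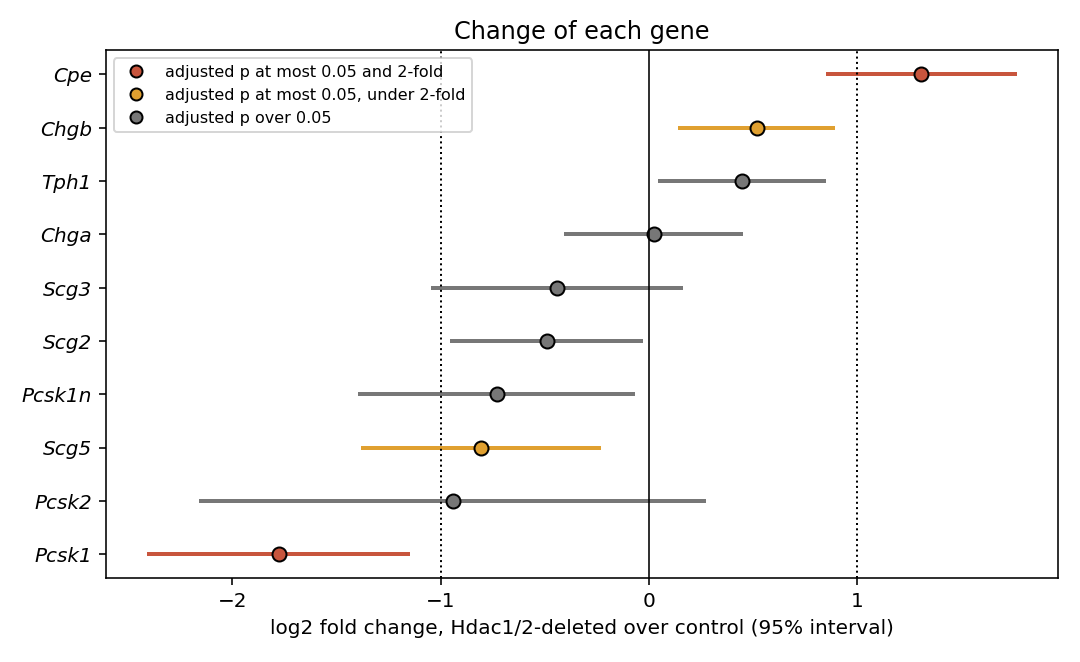
Log2 fold change of each gene (Hdac1/2-deleted over control) with its 95% interval, from the edgeR fit over 6 mice, and dotted lines at 2-fold. The intervals of Cpe and Pcsk1 stand clear of 0 on opposite sides, the interval of Chga lies within 2-fold on both sides, and that of Pcsk2 is the widest.

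Tph1 (ENSMUSG00000040046, chromosome 7 from 46644641 to 46672537, minus strand) read 13.3, 11.5 and 12.9 CPM in control and 19.1, 18.03 and 14.4 CPM in Hdac1/2-deleted mice. H9 was only just above C1, and H1 was highest. The log2 fold change of 0.45 (SE 0.17, adjusted p = 0.069) did not pass the test, and its 95% interval of the fold ran from 1.04 to 1.79. Mast cells can also make serotonin with this enzyme: the sum of 8 mast cell markers was 17.4 to 36.5 CPM in control and 20.1, 24.0 and 89.0 CPM in H1, H5 and H9. In H1, 11.9 CPM of that sum was Kit, which other cells of the gut wall also express, and in H9 55.9 CPM was Mcpt1. The part of mast cell RNA in the Tph1 values was not tested.

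Per kilobase of exon, the order of the levels was the same at the top and differed further down. In control IEC it ran Chgb (85.3 CPM per kb), Chga (45.6), Cpe (6.46), Scg2 (3.33), Pcsk1 (3.24), Scg5 (2.59), Tph1 (2.04), Pcsk1n (1.502), Scg3 (1.08) and Pcsk2 (0.0327). The ranges of the 3 control mice overlapped between Scg2 and Pcsk1 and between Pcsk1 and Scg5, and between no other neighbours in this order. In Hdac1/2-deleted IEC, Pcsk1 went from rank 5 to rank 7, at 0.945 CPM per kb, and Tph1 from rank 7 to rank 4, at 2.78 CPM per kb. These ranks are not separated from their neighbours: the ranges of the Hdac1/2-deleted mice overlapped between Tph1 and Scg2, between Pcsk1 and Pcsk1n and between Pcsk1n and Scg3. Cpe kept its place at 16.0 CPM per kb. Among the raw counts of the 10 genes together, Chgb took 53.4% to 56.2% in control and 60.7% to 63.8% in Hdac1/2-deleted mice. Chga took 28.5% to 30.4% and 20.4% to 25.8%, Cpe 3.26% to 4.29% and 5.86% to 10.7%, and Pcsk1 2.86% to 5.76% and 0.872% to 1.08%.

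Ratios between 2 genes of the same library do not depend on how the libraries were scaled. Chga was taken as the common denominator, and whether its level follows the amount of enteroendocrine RNA was not tested. The ratios to Chga all share its spread between mice, so they do not vary independently. With 3 mice in each group the smallest two-sided p of the exact permutation test is 0.10, which is the p of each ratio whose groups did not overlap, and 0.171 after Benjamini-Hochberg adjustment over the 12 ratios compared. For each Chga read there were 0.145, 0.150 and 0.107 Cpe reads in C1, C3 and C3-3 and 0.523, 0.239 and 0.285 in H1, H5 and H9, a mean log2 difference of 1.31 (exact permutation p = 0.1). The step in H1 is the largest because that mouse had the highest Cpe and the lowest Chga of its group. Without H1 the difference was 0.98. Pcsk1 reads per Chga read were 0.140, 0.1001 and 0.189 in control and 0.0497, 0.0356 and 0.0420 in Hdac1/2-deleted mice, a log2 difference of -1.72 (exact permutation p = 0.1). There were 1.86, 1.97 and 1.75 Chgb reads for each Chga read in control and 3.00, 2.61 and 2.36 in Hdac1/2-deleted mice, a log2 difference of 0.51 (exact permutation p = 0.1). The lowest of these ratios in a Hdac1/2-deleted mouse, in H9, lay above the highest in a control mouse, in C3.

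The ratios of Scg5, Pcsk2, Pcsk1n and Tph1 to Chga did not overlap between the groups either, with mean log2 differences of -0.80, -0.95, -0.74 and 0.44. For Tph1 the margin was narrow, from 0.0953 to 0.103 in control and from 0.104 to 0.199 in Hdac1/2-deleted mice, and the log2 difference was 0.16 without H1. The ratios of Scg2 and Scg3 to Chga overlapped between the groups, with log2 differences of -0.49 (exact permutation p = 0.3) and -0.44 (exact permutation p = 0.2). Pcsk1 to Pcsk2 (-0.77) and Scg5 to Pcsk2 (0.15) overlapped too, with exact permutation p = 0.3 and p = 0.9. Their denominator is 5 to 19 reads, and Scg5 to Pcsk2 changed sign with single mice left out, to -0.051 without C3 and -0.28 without H1.

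**Figure D3:**
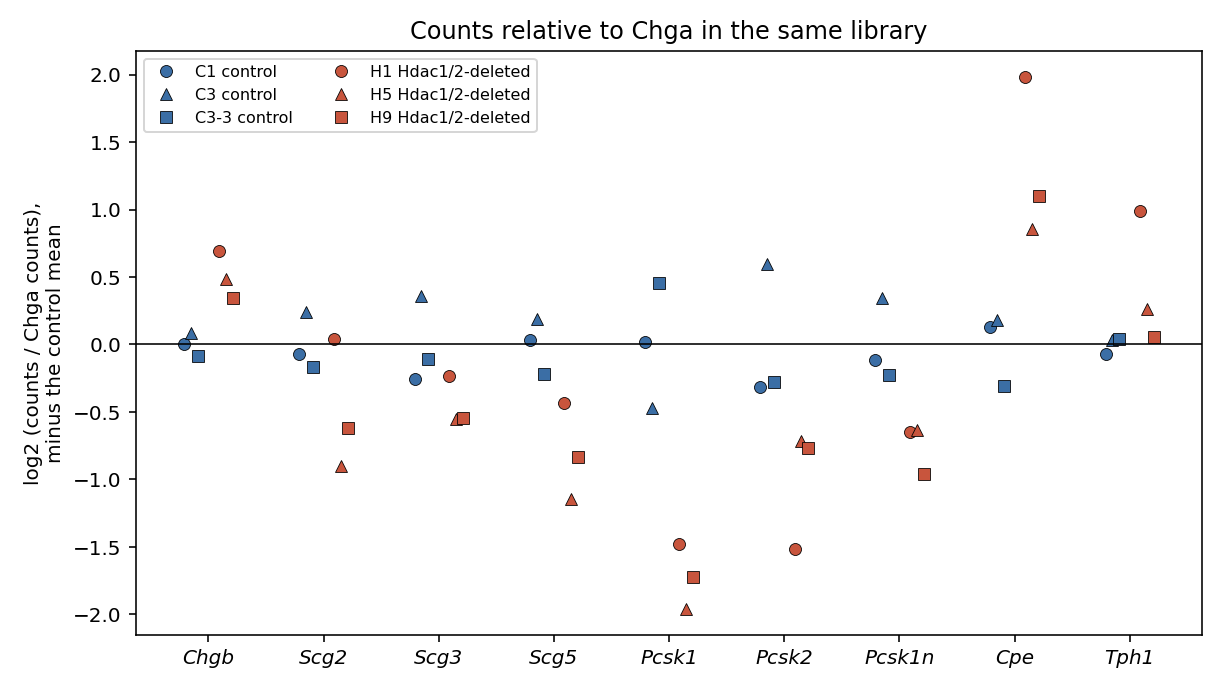
Log2 ratio of the raw counts of 9 genes to those of Chga in the same library, shown as the difference from the control mean, with 1 point per mouse. Cpe and Chgb lie above and Pcsk1, Scg5, Pcsk2 and Pcsk1n below the control points in all 3 Hdac1/2-deleted mice, while Scg2 and Scg3 overlap.

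Profiles over the 6 mice were compared with those of 11074 genes by the Euclidean distance of log2 CPM after subtracting each gene's mean. The nearest to Pcsk1 were Ptprr (distance 0.393), Reg4 (0.473), a secretory product known from enteroendocrine and deep crypt cells, and Tmem37 (0.474), with log2 fold changes of -1.99, -1.68 and -1.79. The nearest to Chga were Arpp19 (0.0905), Rps29 (0.185) and Rpl37a (0.224), and to Tph1 Gnl3l (0.131), Tmem138 (0.138) and Sec61g (0.148). Ribosomal protein genes such as Rps29 and Rpl37a have near-identical pseudogenes, so their counts are uncertain. With 6 points and 2 groups, a short distance says only that 2 genes share the group difference and a few steps between mice.

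The other genes of prohormone processing held larger increases than that of Cpe. Of 20 listed, 18 were tested, 4 rose and 1 fell, with a median log2 fold change of 0.059. The amidating enzyme gene Pam fell from 10.7, 12.7 and 11.8 CPM in control to 5.53, 5.92 and 5.25 CPM in Hdac1/2-deleted mice (log2 fold change -1.07, SE 0.18, adjusted p = 0.0018). Cpm, which encodes a membrane-bound carboxypeptidase with the same preference for basic end residues as Cpe, rose from 28.4, 21.8 and 35.4 to 122.9, 92.2 and 160.8 CPM (log2 fold change 2.14, SE 0.25, adjusted p = 0.00026). Ctsl, a cathepsin that can also cut prohormones, rose with a log2 fold change of 2.23 (adjusted p = 0.00048). Cpxm1, a relative of Cpe without known enzyme activity, had 1 count in control and 52 in Hdac1/2-deleted mice together (adjusted p = 0.0015 in the edgeR test). This is a rate ratio of 52.4 with an exact 95% counting interval from 8.999 to 2109. That interval is for pooled reads and leaves out the spread between mice.

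Of 20 other granule cargo and membrane genes, 18 were tested, 3 rose and 2 fell, with a median log2 fold change of -0.44. Vgf, a granin-like granule protein, read 0.468, 0.900 and 0.847 CPM in control and 2.38, 5.002 and 2.98 CPM in Hdac1/2-deleted mice (log2 fold change 2.22, SE 0.40, adjusted p = 0.0025). Ptprn, whose product IA-2 spans the granule membrane, read 3.56, 3.28 and 2.43 CPM in control and 5.75, 7.74 and 7.09 CPM in Hdac1/2-deleted mice (1.15, SE 0.25, adjusted p = 0.0061). Atp6ap2, a subunit partner of the proton pump that acidifies granules and lysosomes, also rose (1.31, adjusted p = 0.00014). The calcium-binding proteins secretagogin (Scgn, -1.01, adjusted p = 0.023) and nucleobindin 1 (Nucb1, -1.09, adjusted p = 0.00071) fell, the first of them an enteroendocrine protein and the second present in most cells.

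Of 36 genes of granule biogenesis and exocytosis, 33 were tested, 4 rose and 5 fell, with a median of -0.36. Stx1a, a plasma membrane SNARE of granule release, changed most, from 0.936, 0.882 and 0.903 CPM in control to 6.30, 7.21 and 7.28 CPM in Hdac1/2-deleted mice (log2 fold change 2.93, SE 0.24, adjusted p = 4.5e-05). The calcium sensor gene Syt7 (1.54, adjusted p = 0.00097) and the granule GTPase gene Rab3d (1.501, adjusted p = 0.00014) rose as well. The Rab27 effector genes Sytl4 (-1.38, adjusted p = 0.0098) and Sytl2 (-1.16, adjusted p = 0.0021) fell.

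Of 17 genes of amine synthesis, transport and breakdown, 13 were tested, 1 rose and 2 fell, and the median was -0.87, with several genes lower by less than 2-fold. Gch1, which starts the synthesis of the cofactor tetrahydrobiopterin that Tph1 needs, read 18.1, 13.4 and 16.0 CPM in control and 91.8, 71.7 and 70.5 CPM in Hdac1/2-deleted mice (log2 fold change 2.30, SE 0.17, adjusted p = 2.9e-05). Of the other genes of this cofactor, Pts (-0.87) and Spr (-0.94) lay on the other side without reaching 2-fold, both with an adjusted p under 0.05. Qdpr (0.47, adjusted p = 0.021) lay on the side of Gch1, also under 2-fold, and Pcbd1 differed little (0.15, adjusted p = 0.43). Ddc, the decarboxylase that follows Tph1 and is also abundant in absorptive cells, stood at 346.4 ± 72.7 CPM in control and 176.1 ± 39.4 CPM in Hdac1/2-deleted mice (SD, n = 3; log2 fold change -0.98, adjusted p = 0.0058). Hdc, which makes histamine (-2.15, adjusted p = 0.024), and Th, the tyrosine counterpart of Tph1 (-2.005, adjusted p = 0.007), fell. Both rest on few reads. Hdc had 21, 61 and 27 counts in control and 7, 3 and 15 in Hdac1/2-deleted mice. Th had 27, 31 and 32 counts in control and 11, 3 and 9 in Hdac1/2-deleted mice. The vesicular amine transporter Slc18a1 (VMAT1) stood at 19.0 ± 1.01 and 22.1 ± 2.49 CPM (log2 fold change 0.22, adjusted p = 0.28), and the serotonin transporter Slc6a4 at 117.4 ± 36.3 and 97.4 ± 19.9 CPM (-0.27, adjusted p = 0.39).

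The genes listed as prohormone substrates were split. Whether each product, such as that of Agt, is cut by these enzymes was not tested here. Of 24 listed, 16 were tested, 4 rose and 6 fell, with a median of -0.83. Among the risers, Penk had 5 counts in control and 547 in Hdac1/2-deleted mice together (adjusted p = 8.4e-05 in the edgeR test). This is a rate ratio of 110.2 with an exact 95% counting interval from 46.9 to 340.9. That interval is for pooled reads and leaves out the spread between mice. Sct rose by 4.08 and Iapp by 2.31 on the log2 scale. Sst (log2 fold change -3.98), Agt (-1.74) and Nts (-1.33) fell. Of 18 enteroendocrine transcription factor genes, 17 were tested and 0 were called in either direction by the edgeR test or by DESeq2's Wald test, with 2 at an unadjusted p under 0.05 in edgeR. With the adjusted p alone, Rfx3 was higher (0.79, adjusted p = 0.026). The log2 fold changes of this list ran from -1.05 (St18, adjusted p = 0.12) to that of Rfx3, with a median of -0.059. Neurog3, which commits cells to the enteroendocrine lineage, stood at 2.23 ± 0.325 and 2.14 ± 0.894 CPM (SD, n = 3). Neurod1, a factor acting after it, stood at 2.31 ± 0.557 and 1.97 ± 0.348 CPM (SD, n = 3). Their 95% intervals of the fold ran from 0.544 to 1.69 and from 0.529 to 1.37. With intervals this wide, 0 calls does not show that the levels were unchanged.

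**Figure D4:**
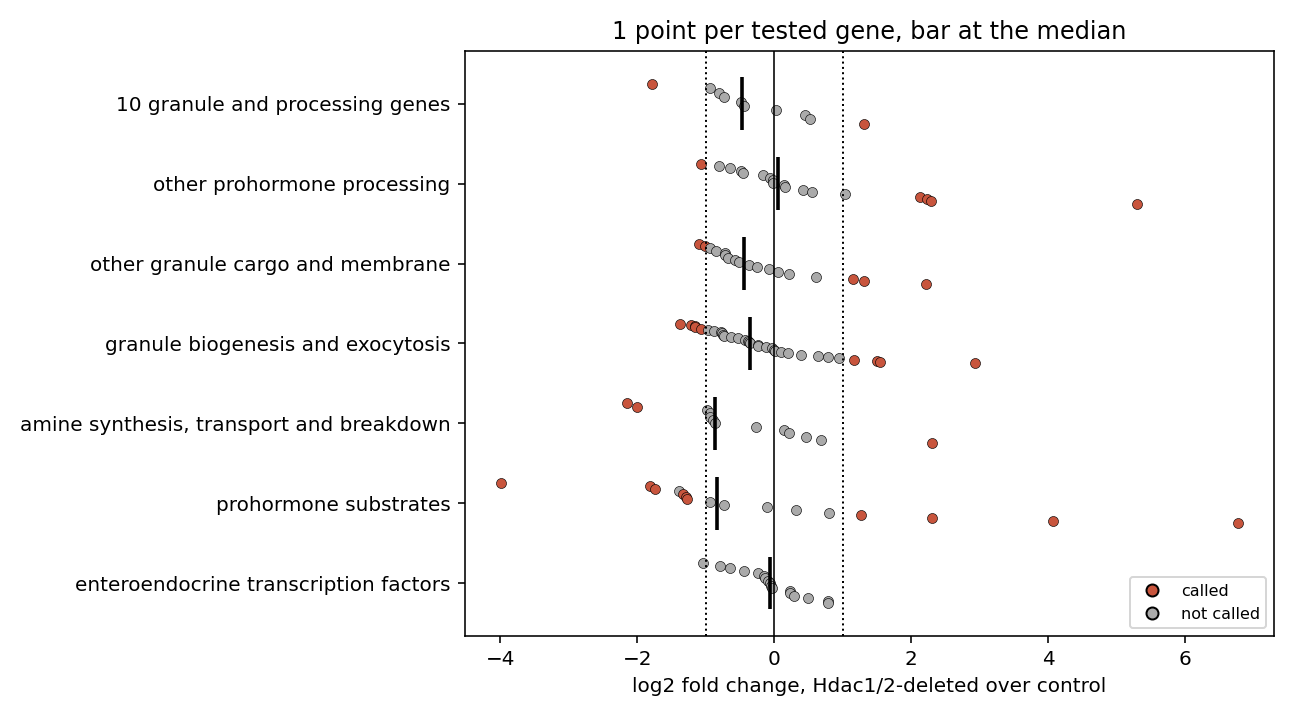
Log2 fold change (Hdac1/2-deleted over control) of every tested gene of the 10 described here and of 6 lists around them, 1 point per gene, called genes in red, a bar at each median and dotted lines at 2-fold. Called genes stand on both sides in each row except that of the transcription factors, which has 0 called. The 2 rightmost points, Cpxm1 and Penk, rest on control counts of 1 and 5, so their fitted values depend on the prior count.

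Over these 6 lists together, 16 genes were called higher and 16 lower, with the number tested given for each list above. By the same rule, 12.4% of all tested genes were called higher and 12.7% lower. These are also the shares to set beside the counts of each list, and no test set the lists apart from them. With library totals as the only scaling, the median of all genes moved from -0.0081 to 0.18, and 2463 genes were called higher and 1538 lower in place of 1944 and 1990, while in the 6 lists the lower calls went to 10. The sign of each of the 10 main genes was the same under this scaling, and Cpe (1.496) and Pcsk1 (-1.60) passed the test there too, on opposite sides of the shifted median.

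The epithelial identity of the samples was plain, and the other cell types differed in small amounts. The 8 epithelial markers summed to 13590 to 15470 CPM in control and 10730 to 13250 CPM in Hdac1/2-deleted mice, and 1 of them, Krt18, was called higher. With the adjusted p alone, Epcam (log2 fold change -0.62, adjusted p = 0.017) and Krt20 (-0.57, adjusted p = 0.032) were lower. Of 8 stroma and muscle markers, 4 fell (Myh11, Acta2, Des and Dcn), with the levels of C1 and C3 given above. The sum of 3 glial markers in the table was at most 0.619 CPM, with Sox10 at 0 in the Hdac1/2-deleted mice, and that of 7 leukocyte markers ran from 39.5 to 112.8 CPM in control and from 30.4 to 54.8 CPM in Hdac1/2-deleted mice, Cd8a being called lower. Pcsk1 was highest in C3-3, the control mouse with few muscle transcripts, and C3-3 had the lowest Cpe. Whether RNA of these other cells takes part in the values of Scg2, Scg3, Scg5 and Pcsk1n was not tested.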

How the data were processed

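Poly(A) RNA of EDTA-enriched jejunal IEC was sequenced from directional libraries, 1 per mouse. The study's methods name STAR 2.4.0.1 and GRCm38, and the submitters' processing notes name STAR 2.4.0f1 and mm9; the counting program, annotation and strand setting are not given in the sources used here. The authors deposited raw counts per gene, which were used. The 6 columns of scaled values per sample and the authors' own fold changes and p-values were not used. They were fitted in R 4.3.3 with edgeR 4.0.16 (limma 3.58.1; TMM, filterByExpr, robust quasi-likelihood fit, prior count 0.125, no covariates), with Benjamini-Hochberg adjustment over all tested genes and DESeq2 1.42.0 as an alternative. Plots were drawn with matplotlib 3.10.9. Positions, exon overlaps and exon lengths came from GENCODE M21 (GRCm38) by gene identifier, and promoters from RefSeq. Ratios used raw counts with an offset of 0.5. The edgeR p-values set the group difference against the spread between 3 mice per group, moderated over all tested genes. The exact permutation p-values come from reassigning the mice to the groups. The steps were tested on simulated data.

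The 10 genes, the lists and the alternatives were chosen with earlier results of these data known. Named were the 10 genes, Hdac1 and Hdac2, from each list all called genes or, where over 6 were called, the 6 largest whose mean log2 CPM reached 0, and the 3 nearest profiles of Chga, Pcsk1 and Tph1 among genes whose mean log2 CPM reached 1. Rfx3, St18, Ddc, Pts, Spr, Qdpr, Pcbd1, Slc18a1, Slc6a4, Neurog3, Neurod1, Prph, Nefl, Uchl1, Kit, Mcpt1, Epcam and Krt20 were named after their values were seen. Some genes that the rule takes are not reported here. The proteome, qPCR and other assays of the study were not analysed here.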

Additional observations from a re-analysis of the deposited data

How the results depend on the processing

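For the 10 genes, 100 alternative fold changes were computed (DESeq2 size factors, library totals only, DESeq2's Wald test, no filter on low counts and each mouse left out). Of these, 97 had the direction and the call given above and 3 changed sign, all for Chga, whose log2 fold change ran from -0.10 to 0.20 with single mice left out (-0.045 without C3, -0.10 without H5, -0.030 without H9). Of 84 alternative ratios between genes, 82 had the same direction and 2 changed sign, both for Scg5 to Pcsk2 (-0.051 without C3 and -0.278 without H1, in a range from -0.278 to 0.457 with single mice left out). No ratio of 3 mice against 3 could pass the threshold. With the adjusted p alone, 2 of the 10 genes were higher and 2 lower, in place of 1 and 1. In the 6 lists, 21 genes were then higher and 31 lower, in place of 16 and 16. By that rule, 20.5% of all tested genes were higher and 20.3% lower. With library totals only, 10 genes of the lists were lower. With single mice left out, 1 of the 10 genes was higher and 1 lower each time, and the lists had 15 to 16 higher and 13 to 15 lower. Adjusted p-values reached 0.05 in 3 of 10 alternatives for Tph1, 2 for Pcsk1n, 1 for Scg2 and 0 for Scg3, Pcsk2 and Chga. The cause was not tested. No paired analysis was possible because the groups share fewer than 2 replicate names. Depth limits Pcsk2, with 5 to 19 counts per mouse.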
